A study of Caenorhabditis elegans with 4 samples.

Results

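REC-8 regions that followed each other at short distances along a chromosome were examined as runs in the adult C. elegans germline. The runs were chosen by measured positions in the series-level peak list: regions under 1000 bp wide on chromosomes I, II, III, IV, V and X were joined where the gap to the region before was at most 2000 bp, and chains of 4 or more regions were kept. This left 261 runs with 1369 member regions, out of 6877 narrow regions on these chromosomes and 7283 regions in the whole list. The other 5508 narrow regions, which stood alone or in chains of 2 or 3, serve as the comparison. All libraries came from fem-2(b245) hermaphrodites at the stage labelled germline containing young adult, raised at 20 °C, and the labels name no other allele, agent or strain. The 2 REC-8 ChIP libraries were made with SDQ3953, an affinity-purified polyclonal rabbit antibody, and 2 libraries of input DNA accompanied them. Values were used here from 3 deposited lists, 1 for each REC-8 replicate and 1 for the series. The growth protocol calls the harvested animals gravid. Chromatin came from whole animals that were frozen, ground and crosslinked, so the lists average over all nuclei in which REC-8 was bound. The labels do not say that the replicates were separate cultures, and their differences may be technical. The read depth of these lists is unknown.

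REC-8 is a kleisin, the subunit that closes the ring of the cohesin complex. Meiotic cohesin holds sister chromatids together from DNA replication until the divisions, and its core lines the chromosome axis on which homologous chromosomes pair and recombine. In C. elegans, REC-8 works beside the kleisins COH-3 and COH-4. The chromosomes are holocentric, with kinetochores along their length. A peak score is the value that the authors' caller gave to a peak. Its scale is not stated and differs from list to list, so it is used here to describe regions within a list. Members were taken from the series-level list, and the replicate lists concern the same libraries. The comparisons below are therefore descriptions without a test, and the intervals given for shares are 95% Wilson intervals that cover counting error only and take neighbouring regions as independent.

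Most runs were short. Of the 261 runs, 122 (46.7%) had 4 regions, 64 had 5, 37 had 6 and 15 had 7, whereas 23 had 8 or more. The longest had 16. The span of a run had a median of 4054 bp (quartiles 3220 and 5390 bp) and lay between 1306 and 14499 bp. Within that span, the regions themselves covered a median of 43.3% of the bases (quartiles 34.9 and 53.8%). Together the runs spanned 1185 kb, or 1.18% of the nuclear chromosomes as measured to the last peak. The 1108 gaps inside runs had a median of 446.5 bp and a minimum of 44 bp, and 592 of them (53.4%) were under 500 bp. Gaps between all neighbouring narrow regions had a median of 4701 bp, and 2430 of these 6871 gaps (35.4%) met the limit of 2000 bp.

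The widest member, I 4911467 to 4912465, was 999 bp wide with a score of 17.19, and the narrowest regions left out as too wide were 1002 bp, on I at 4171826 (score 84.51) and on III at 9826972 (score 12.04). A gap of exactly 2000 bp joined IV 11953314 to 11953469 (score 2.17) to IV 11955469 to 11955883 (score 6.14) and so completed a run of 4. A gap of 2001 bp kept II 320887 to 321394 (score 5.19) apart from II 323395 to 323647 (score 12.51). Just below the minimum length stood 294 chains of 3, with 882 regions.

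Coordinates of named runs are in WormBase build WS220. The run with the most regions lay on II from 1140793 to 1153587, in the left of 3 equal parts of the chromosome, and held 16 regions in 12795 bp. In chromosome order its members scored 4.34, 13.99, 3.7, 18.73, 5.17, 4.02, 3.02, 6.45, 6.89, 2.32, 5.33, 9.96, 3.32, 3.85, 22.47 and 11.05, with a median of 5.25. A few members of intermediate score thus stood among many low ones. The strongest region, II 1152292 to 1153075, scored 22.47 in the series-level list, and the peaks over it scored 77.85 in replicate 1 and 355.26 in replicate 2. The next, II 1143167 to 1143766, scored 18.73, with 53.88 in replicate 1 and 247.7 in replicate 2. Replicate 2 had 10 peaks over 12 of the 16 members, and replicate 1 had 3 peaks over 3 of them. Of the 16, 3 were found in both replicates, 9 in replicate 2 only and 4 in neither, where found means an overlap of at least 1 bp with a peak. A pair of regions of 1000 bp or more, with scores of 5 and 6.92, stood between the members and were passed over by the rule. A single peak of replicate 2 from 1148250 to 1151318, with a score of 1559.59, ran over the wider of these and over a member on each side of it.

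**Figure D1:**
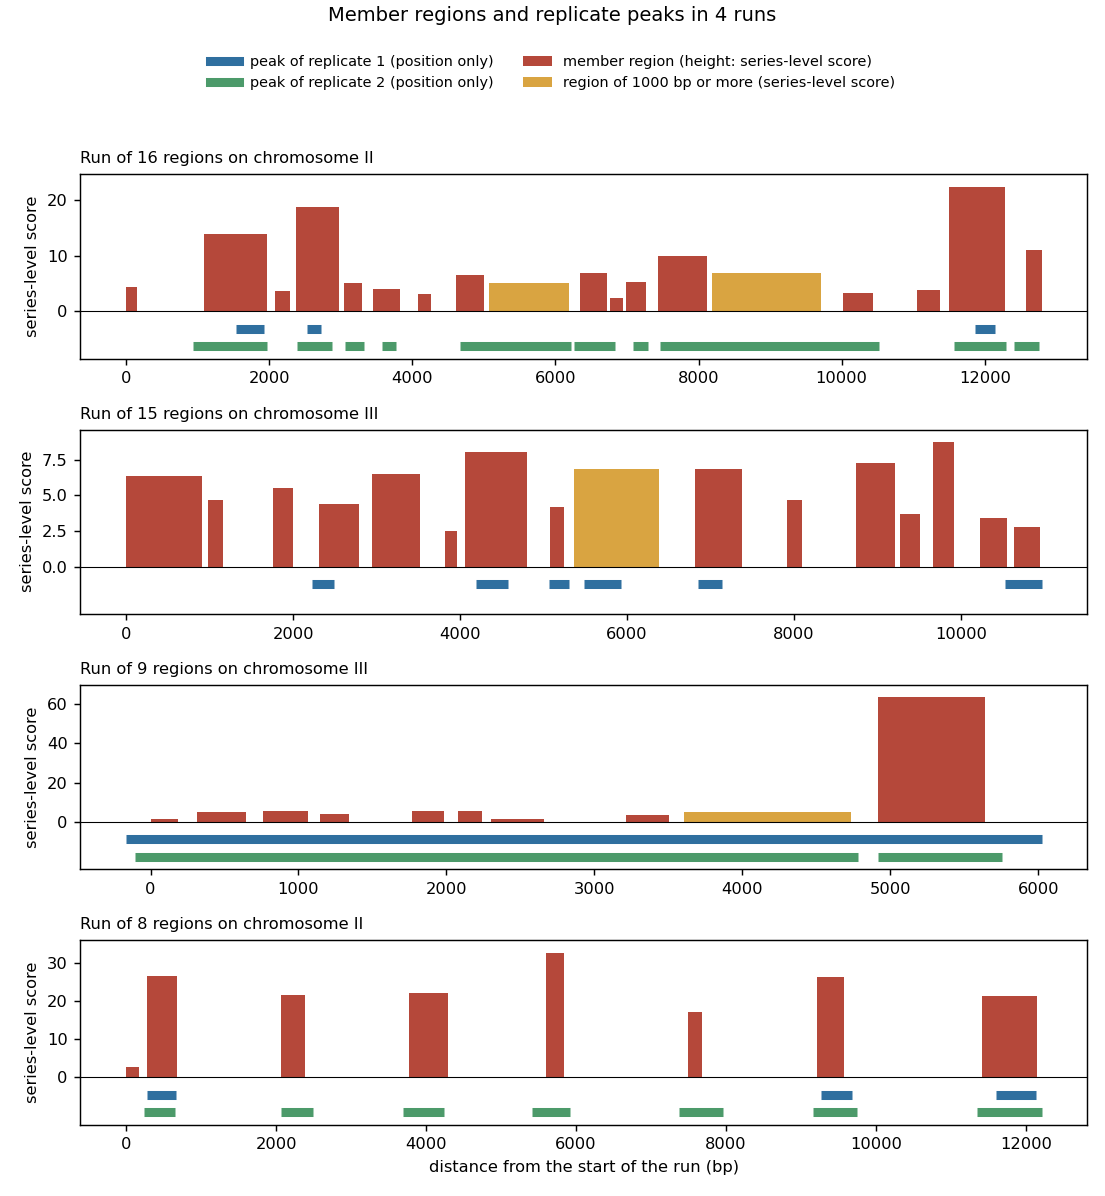
Series-level score (vertical axis) of each member region against its distance from the start of the run in bp, for 4 runs on II, III, III and II. Red bars are members, yellow bars are regions of 1000 bp or more inside the run, and the blue and green lines mark the positions of peaks of replicate 1 and replicate 2. The run of 9 on III lies under 1 peak of replicate 1. The run of 15 on III has 5 small peaks of replicate 1 over 6 of its members, 1 more over the region of 1000 bp or more, and none of replicate 2. The run of 8 on II has separate peaks at similar distances.

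The next 3 runs had 15 regions each. The run on IV from 12194679 to 12209177 had the longest span of all, 14499 bp, with scores between 1.51 and 29.05 and a median of 6.25. Replicate 1 overlapped 8 of its regions and replicate 2 overlapped 3. The run on V from 10466521 to 10478517 reached a score of 40.92 at one end and had a median of 5.09, with 3 regions overlapped by replicate 1 and 5 by replicate 2. The run on III from 321872 to 332813 had no region above 8.74, and 6 of its regions were overlapped by replicate 1, whose peaks over them scored between 56.13 and 113.3. None of its 15 regions was overlapped by replicate 2. The fifth, on V from 6000238 to 6012646, had 13 regions, of which 11 were found in neither replicate, while the region at its end scored 39.4. On I the longest run, 11571778 to 11580459, had 11 regions with a median score of 4.02, and on X the run from 4016038 to 4022431, 1 of 2 with 8 regions on that chromosome and the longer of the pair, had a median of 5.985. In these long runs most scores were low, and in those on IV, V, I and X the strongest region lay at an end of the run.

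Members scored lower than the other narrow regions, and scores were lower in longer runs. The median series-level score was 6.09 for members (quartiles 3.89 and 11.05) and 7.86 for the other narrow regions (quartiles 4.68 and 16.03). It was 6.85 in runs of 4, 6.115 in runs of 5, 5.835 in runs of 6, 5.06 in runs of 7 and 5.36 in runs of 8 or more. Regions that stood alone had a median of 8.115 and chains of 2 had 7.73. Chains of 3 had 6.85, the same as runs of 4, so lower scores were not particular to members. Members were somewhat wider, with a median of 307 bp against 278 bp for the other narrow regions. Of the members, 240 (17.5%) scored above 14.64, the upper quartile of all narrow regions, against 1479 (26.9%) of the others.

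**Figure D2:**
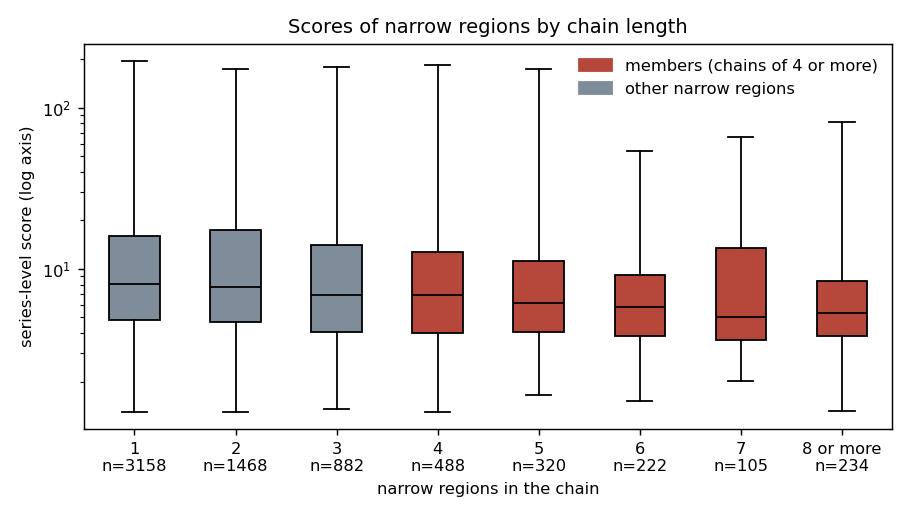
Series-level score on a log axis against the number of narrow regions in the chain. Boxes show the median and quartiles, and whiskers reach the lowest and highest value. Medians lie between 5.06 and 6.85 in runs, against 8.115 for single regions, 7.73 in chains of 2 and 6.85 in chains of 3.

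The strong regions of a run were few. In 107 of the 261 runs (41.0%) no region exceeded 14.64, in 88 (33.7%) 1 region did, in 55 (21.1%) 2 did, and in 11 at least 3 did. The highest score of a run had a median of 18.77, the second highest a median of 9.07 and the lowest a median of 3.1. The strongest region lay at an end of the run in 141 runs (54.0%), and in 75 of the 122 runs of 4 (61.5%). By position alone 2 of the 4 regions of such a run are at an end, and a smaller share in longer runs. Whether strong regions favoured the ends was not tested. The highest-scoring member of all, X 12521424 to 12522232, scored 185.48, and its replicate peaks scored 2282.99 in replicate 1 and 1574.17 in replicate 2. It stood in a run of 4 whose other regions scored 6.09, 2.29 and 5.31, and these were found in neither replicate. The member III 6971804 to 6972535 scored 154.9, and no other region of its run scored above 6.02.

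Some runs joined 2 or more strong regions, and a high median could rest on 2 of 4 regions. By median score the highest was on I from 534216 to 537242, a run of 4 with a median of 66.045. Its strong members, I 535095 to 535745 and I 536484 to 537242, scored 145.07 and 122.18, with 1483.39 and 1352.25 in replicate 1 and 1106.13 and 1225.27 in replicate 2. The remaining members of that run scored 9.91 and 1.41. The score of 1.41 was among the 5 lowest of all members, with V 9096994 to 9097152 (1.3), III 2497130 to 2497312 (1.32), X 4020883 to 4021055 (1.45) and X 4029526 to 4029841 (1.45). The run on IV from 13881531 to 13887855 had 5 regions with a median of 45.33. Its first region scored 164.9, with 1494.17 in replicate 1 and 1072.56 in replicate 2, and the region at 13884107 to 13884916 scored 174.3, with 3100 in both replicates. The same replicate 2 peak also covered the region after it, which scored 18.78. In both replicate lists 3100 was the highest score over members and over other narrow regions alike. Whether it is a ceiling of the score was not tested, so the equal values do not show agreement. The other 3 runs of highest median score were II 10867260 to 10873053 (median 42.525), I 10549636 to 10554179 (36.79) and IV 11197460 to 11202696 (32.04), each of 4 regions. In the 5 runs, between 2 and 4 regions were found in both replicates.

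The run on II from 13817717 to 13829868 had the most regions above 14.64, 7 of 8, and was singled out after its values were seen. Those 7 regions scored 26.39, 21.55, 22.12, 32.59, 17.03, 26.31 and 21.37 in the order in which they lie on the chromosome. Their starts followed each other at distances of 1785, 1708, 1822, 1898, 1713 and 2211 bp. Replicate 2 had 1 separate peak over each of the 7, with scores of 289.54, 171.05, 206.77, 249.13, 247, 223.8 and 518.33. Replicate 1 had peaks over 3 of them, the first and the last 2, with scores of 50.42, 98.07 and 206.71. A second run on the same chromosome, 14244404 to 14251885, had 5 of 7 regions above 14.64 and a highest score of 54.03. All 7 of its regions were overlapped by replicate 2 and 5 by replicate 1.

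Replicate 1 overlapped 500 members (36.5%) and replicate 2 overlapped 552 (40.3%), against 32.4% and 46.4% of the other narrow regions. Found in both replicates were 328 members (24.0%, interval 21.8 to 26.3%), against 26.0% of the other narrow regions, and 25.6% of all narrow regions. Found in neither were 645 members (47.1%), against 47.2% of the other narrow regions and 47.2% of all narrow regions. These shares are near those of all narrow regions. They differed for a single replicate: 172 members (12.6%, interval 10.9 to 14.4%) were found in replicate 1 only, against 6.41% of the other narrow regions (interval 5.79 to 7.09%) and 7.63% of all narrow regions. This difference depended on the regions counted: it was 7.09% of members against 5.41% of the others without regions under a replicate peak shared with another series-level region, and 6.54% against 8.39% where only regions at or above the median narrow score were chained. In replicate 2 only, 224 members were found (16.4%), against 20.4% of the other narrow regions and 19.6% of all narrow regions. Counted by run, 191 runs were touched by both replicates, 25 by replicate 1 only, 25 by replicate 2 only and 20 by neither. All members were found in both replicates in 7 runs. The share of members found in both was 27.3% in runs of 4, 26.6% in runs of 5, 40 of 222 in runs of 6, 26.7% in runs of 7 and 17.9% in runs of 8 or more. The longest runs found in neither replicate, picked out after their values were seen, were 4 runs of 6 regions each. They lay on I from 8779395 to 8783065 (highest score 6.52), on III from 5809997 to 5815196 (10.84), and on X from 12514878 to 12518865 (8.33) and from 13157182 to 13162087 (6.38).

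At series-level scores up to 14.64, members were found in the replicates more often than other narrow regions, with all regions counted. In the lowest quartile this did not hold without regions under a replicate peak shared with another series-level region. There 89.6% of members and 89.5% of the others were then found in neither replicate. In the lowest score quartile (up to 4.44), 16 members (3.63%) and 11 of 1281 other regions (0.859%) were found in both replicates. In the second quartile (up to 7.38), the shares were 7.75% of 387 members and 1.72% of 1335 others. In the next (up to 14.64), they were 27.2% of 301 members and 12.2% of 1413 others. Above 14.64 they were 83.3% of 240 members and 83.0% of 1479 others. In that highest quartile none of the 240 members and 21 of the other narrow regions (1.42%) were found in neither replicate.

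**Figure D3:**
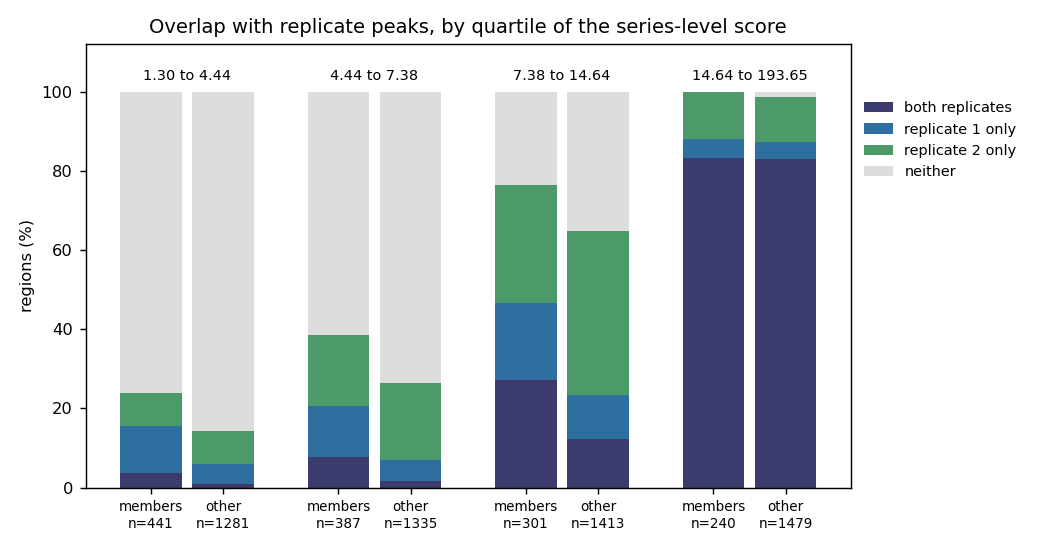
Percent of regions found in both replicates, in replicate 1 only, in replicate 2 only or in neither, for members and other narrow regions in each quartile of the series-level score. The score range stands above each pair of bars. Members are found in both replicates more often in the lower 3 quartiles and as often (83.3% and 83.0%) in the highest. Regions under a replicate peak shared with another series-level region are included, and without them the lowest quartile shows no excess of members.

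Some replicate peaks were broad and covered several series-level regions at a time, and their share differed between the classes. Such a shared peak lay over 226 members (16.5%), against 222 (4.03%) of the other narrow regions. By the rule every member had a narrow neighbour within 2000 bp, whereas 3158 of the other narrow regions had none. This difference is therefore not independent of the rule. Without regions under shared peaks, 20.4% of 1143 members and 25.5% of 5286 other regions were found in both replicates. The shares found in replicate 1 only were 7.09% and 5.41%. Within the lowest score quartile the shares found in both then stood at 0.267% of members and 0.489% of the others. In the second quartile 2.83% and 0.934% remained, and in the next 23.3% and 11.9%. Of the 1108 gaps inside runs, 98 were bridged by a single peak of replicate 1 and 67 by one of replicate 2, and 978 (88.3%) by neither. Bridged gaps had a median of 86 bp and the others a median of 516.5 bp. Replicate 1 had 53 peaks over 2 or more members each (median width 878 bp), and replicate 2 had 46 (median width 793 bp). Peaks over a single member had median widths of 473 bp in replicate 1 and 418 bp in replicate 2.

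In 12 runs, with 61 members, every region lay under 1 peak of a replicate. In 4 of them this held in both replicates, in the other 8 in replicate 1. The run on III from 2497130 to 2502769 had 9 regions, all found in both replicates. A peak of replicate 1 of 6189 bp, with a score of 2706.13, covered the whole run, and replicate 2 had 2 peaks over it, with scores of 204.67 and 653.71. In the series-level list, 8 of its regions scored between 1.32 and 5.59, whereas the region at its right end scored 63.38. The run on V from 3434574 to 3439313 had 6 regions with scores of at most 8.35 under a peak of 6616 bp in replicate 1 (score 980.72) and one of 4823 bp in replicate 2 (score 580.86). The run on X from 109867 to 114093 had 5 regions with scores of at most 7 under peaks of 5215 bp (score 1177.33) in replicate 1 and 4913 bp (score 114.3) in replicate 2. Low series-level scores thus stood under long replicate peaks in these runs, and the scores of different lists are not on a common scale.

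Some broad peaks were listed in replicate 1 only. In 7 of the 12 runs under 1 peak, replicate 2 listed no peak over any region. The run with the shortest span, II 14337724 to 14339029, had its 4 regions under a peak of replicate 1 with a score of 336.23. The 6 regions of the run on III from 1017509 to 1020437 lay under a peak of 3452 bp with a score of 713.04. On V, the runs 7918376 to 7920295 (6 regions) and 7922446 to 7924711 (4 regions) lay under a single peak of replicate 1 of 8220 bp, with a score of 1426.77. A list shows only peaks above its lowest score, so weaker enrichment in replicate 2 at these places cannot be seen. Altogether 14 runs held 4 or more members found in replicate 1 only, and these accounted for 66 of the 172. Only 4 runs held 4 or more found in replicate 2 only.

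Regions of 1000 bp or more lay beside a minority of runs, but beside members more often than beside other narrow regions. Of the members, 230 (16.8%) had such a region within 2000 bp, against 352 (6.39%) of the other narrow regions. The rule takes members from dense stretches of the same list, so this contrast is not independent of it. A wide region lay inside 25 runs (9.58%) and within 2000 bp of 65 (24.9%). The 386 members of those 65 runs had a median score of 5.6, and 22.8% were found in both replicates. The 983 members of the remaining runs had a median score of 6.31, and 24.4% were found in both. On V, runs of 5 regions each at 17115545 to 17123999 and at 17126154 to 17132085 followed each other with every region found in both replicates, and a peak of 6803 bp in replicate 1 (score 1925.18) and one of 6719 bp in replicate 2 (score 2529.71) reached over parts of both.

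Runs were found on all 6 nuclear chromosomes, in numbers that largely followed those of narrow regions. Chromosome III had the most, with 60 runs and 309 members, and 23.8% of its narrow regions lay in runs (interval 21.6 to 26.2%). The share was 20.6% on IV (47 runs), 20.0% on II (37), 18.6% on V (34), 18.4% on I (49) and 17.3% on X (34, interval 15.1 to 19.7%). Intervals of neighbouring chromosomes in this order overlapped, whereas the interval of III lay above those of V (16.4 to 21.1%), I (16.4 to 20.6%) and X. These intervals count regions singly, although the regions of a run enter together. They are therefore too narrow to tell chromosomes apart. Over the genome, 19.9% of narrow regions were members. Per Mb, III carried 4.35 runs, I 3.25, IV 2.69, II 2.42, X 1.92 and V 1.63, and narrow regions had nearly the same order, with 94.2 on III, 86.4 on I, 68.4 on II, 66.6 on IV, 58.7 on X and 49.2 on V. Whether regions were grouped beyond what their density gives was not tested.

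Along the chromosomes, members lay where other narrow regions lay. The central of 3 equal parts held 505 members (36.9%, interval 34.4 to 39.5%), against 37.2% of the other narrow regions. The left part held 30.4% of members and 31.0% of the others, and the right part 32.7% and 31.9%. Single chromosomes were less even. On II, 26 members (12.4%) lay in the left part, against 22.8% of the other narrow regions there, and 16 of those 26 belonged to the longest run. On V the left part held 44 of 191 members, against 32.9% of the others, and the centre 91 (47.6%), against 40.2%. On X the centre held 46 members (25.6%), against 31.9% of the others. On III the left part had the highest share of narrow regions in runs of any part, 28.2%, and the left part of II the lowest, 12.0%.

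**Figure D4:**
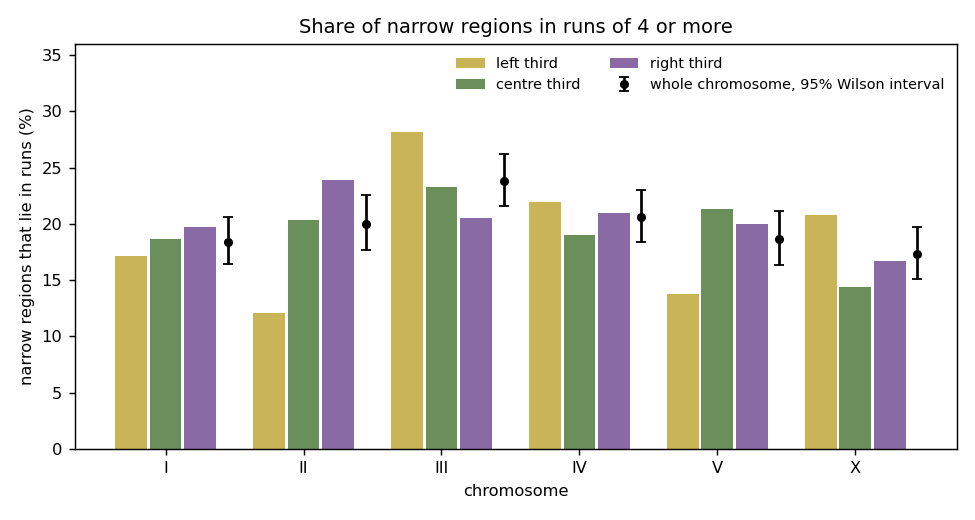
Percent of narrow regions that lie in runs, for the left, central and right of 3 equal parts of each chromosome (bars) and for the whole chromosome (points, with 95% Wilson intervals). Whole chromosomes lie between 17.3% on X and 23.8% on III, and parts between 12.0% and 28.2%.

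On X, and by a smaller margin on V, more members were found in replicate 1 only than in replicate 2 only, while other narrow regions had the opposite order. Of 180 members on X, 32 (17.8%, interval 12.9 to 24.0%) were found in replicate 1 only and 17 (9.44%, interval 5.98 to 14.6%) in replicate 2 only. Among the 860 other narrow regions on X the order was turned round, with 43 (5.00%) in replicate 1 only and 226 (26.3%) in replicate 2 only. The 32 members lay in 16 runs. These intervals of members on X overlapped. Without members under shared peaks, 17 of 152 members on X (11.2%) were found in replicate 1 only and 15 (9.87%) in replicate 2 only. Among 826 other regions the shares were 3.27% and 26.6%. On I, II, III and IV, replicate 2 had the larger share among members, as among other regions, whereas on V 14.7% of members were found in replicate 1 only and 13.6% in replicate 2 only, against 8.74% and 20.0% of the other narrow regions. The intervals of both shares of members on V overlapped, as on X. Without regions under shared peaks the shares of members on V were 4.17% in replicate 1 only and 16.0% in replicate 2 only. Among the runs of X with several such members, picked out after their values were seen, the run at 2693075 to 2698702 had 4 of 8 regions in replicate 1 only, and the run at 4016038 to 4022431 had 3 of 8. The next run, at 4026143 to 4029841, had all 4 regions in replicate 1 only, with scores of at most 3.77. The run at 1752410 to 1754275 had its 4 regions under a single peak of replicate 1 of 2937 bp.

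**Figure D5:**
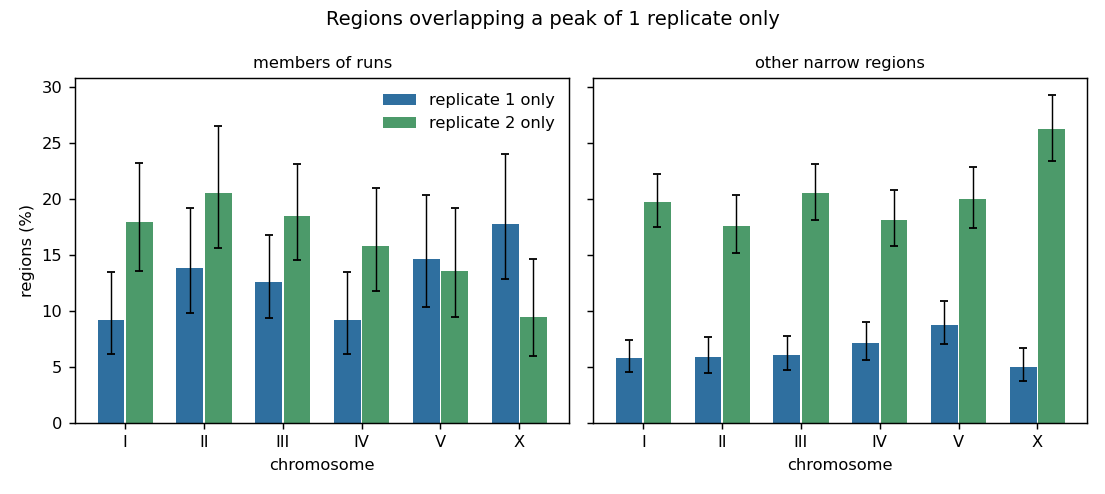
Percent of regions found in 1 replicate only, by chromosome, for members of runs (left) and other narrow regions (right), with 95% Wilson intervals. On X, replicate 1 has 17.8% and replicate 2 has 9.44% among members, with overlapping intervals, against 5.00% and 26.3% among other narrow regions.

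Where both replicates had a peak over a region, the median peak scores of members were somewhat below those of other narrow regions. For the 328 members, the median score of the highest overlapping peak was 177 in replicate 1 and 228 in replicate 2. For 1434 other regions it was 197 in replicate 1 and 252 in replicate 2. A peak over several regions gave its score to each of them. Of these regions, 95 members and 84 others lay under a replicate peak shared with another series-level region. The replicate medians therefore count some peaks more than 1 time, and more so for members. The series-level score of the same regions had a median of 18.585 for members and 30.12 for the others. Members found in 1 replicate only had median series-level scores of 6.45 (replicate 1) and 7.89 (replicate 2), against 9.24 and 9.31 for the other narrow regions. Members found in neither had a median of 4.34, against 4.955.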

How the data were processed

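The deposited peak positions were used unchanged, from 1 list for each REC-8 library and 1 for the series; the input libraries were not analysed here. Per the file headers coordinates are in WormBase WS220, and they are counted from 1. Per the submitters' processing notes BWA and the build ce10 were used. The source columns name MACS for the replicate lists and MACS v2 for the series-level list. No source used here gives the caller's settings, the use of input or any pooling. The deposited score of a peak has no stated scale.

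Width was taken as end minus start plus 1 and gap as start minus the end of the narrow region before, and 3 mitochondrial regions were left out. Chromosomes were taken to end where their last listed peak ended. Found in a replicate means an overlap of at least 1 bp, and the highest overlapping score was taken. Chaining and overlap were tested on simulated lists and recovered 5433 of 5433 regions. Shares have 95% Wilson intervals. Named runs were the 5 with the most regions, the longest of each chromosome, the 5 of highest median score, and the longest and shortest in span. Of the 7 runs with every region in both replicates, the 5 with the most regions were named. Beside these stood others marked as singled out and the examples of broad, wide-flanked and X-linked runs, which were chosen after their values were seen. The members and lists were chosen with earlier results of these data known. No genome or annotation of the files' build was used, so planned comparisons of base composition and gene overlap were not run. Python 3.11.15, pandas 2.3.3, numpy 2.4.6 and scipy 1.17.1 were used.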

Additional observations from a re-analysis of the deposited data

How the results depend on the processing

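Member numbers depended on the limits of the rule. With gaps of at most 1000 bp there were 713 members in 146 runs, with a median score of 5.73. Of these members 21.5% were found in both replicates, against 26.1% of the other regions. Runs of 3 or more gave 2251 members in 555 runs, and runs of 5 or more 881 members in 139 runs (median score 5.73). A width under 500 bp left 676 members in 137 runs, with a median score of 5.075, 12.7% in both and 58.3% in neither. The other regions of that setting had 17.8% in both and 54.1% in neither. With no width limit the median score was 6.85, with 29.6% in both and 42.4% in neither, against 29.0% and 45.4% of the other regions. Chaining only regions at or above the median narrow score left 107 members in 24 runs, with a median score of 16.21. Of these members 56.1% were in both and 10.3% in neither, against 48.6% and 17.6% of the other regions. In that setting the regions outside runs had a lower median, 14.64, so the lower scores of members did not hold there, nor did their higher share in replicate 1 only (6.54% of members, 8.39% of other regions). The cause was not tested. An overlap of at least 50% of the region gave 20.7% in both and 52.0% in neither, and replicate peaks at or above their list's median score gave 10.4% and 70.9%. Without members under a shared replicate peak, a setting added after seeing the data, 20.4% were in both and 56.4% in neither. The share found in either replicate, 52.9%, was 36.5 to 40.3% with 1 replicate left out. With the centre taken as 25 to 75% of each chromosome's length, 61.7% of members lay in it. That centre is wider than the central of 3 equal parts, and the share of other narrow regions in it was not taken, so 61.7% does not show central enrichment. The other 36 of 67 values, including those with runs ended at wide regions or without runs near them, stayed within 1.5 times the count or within the interval. Chromosome lengths from a reference were not tried. No paired analysis was possible because only the REC-8 libraries had values used here. Depth is unknown, and lists end at a minimum score.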

Other observations

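When the same rule of width, gap and number was applied to each replicate's own list, runs were fewer. Replicate 1 had 27 runs with 127 of its 2321 narrow peaks (5.47%), and replicate 2 had 63 runs with 289 of 3443 (8.39%). Of these, 21 runs of replicate 1 and 35 of replicate 2 overlapped a series-level run. Only 6 of the 261 series-level runs overlapped a run of each replicate: III 6164201 to 6173245 (8 regions), III 8974846 to 8982761 (6), III 10814611 to 10818871 (5), IV 15076596 to 15080194 (4), V 8421157 to 8423782 (4) and X 4134866 to 4139246 (5). The overlap was between spans of runs and does not mean that their regions matched. In the run on III from 8974846 to 8982761, 4 of 6 regions were found in neither replicate and none in both. The lists differ in length, and the overlaps were not tested.

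Neighbouring runs on a chromosome had a median distance of 207 kb, and 29 of 255 such distances were at most 10 kb. Whether runs stood nearer together or farther apart than their number gives was not tested.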
